A study of Mus musculus with 76 samples.

Results

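Catalase (*Cat*) and the peroxiredoxins *Prdx1* to *Prdx6* were described in mouse tumors that had been given additional catalase. These 7 genes were taken by symbol, as the genes whose products break down hydrogen peroxide as catalase or as peroxiredoxins, from the 55536 genes of the count table. All 7 passed the filter on low counts in every comparison. RNA came from 38 whole tumors that grew under the skin of the flank of Balb/c mice (female, 6 to 12 weeks old, per the study's methods), and every one had 2 technical replicate libraries. CT26 (colorectal carcinoma, 1000000 cells inoculated) tumors were given CAT-ABP + alum in 6 cases and alum alone in 5, and 4T1 (mammary carcinoma, 500000 cells) tumors likewise, 6 and 5. 4T1-CAT tumors, from 4T1 cells with a doxycycline (DOX)-inducible catalase and GFP, numbered 5 with CAT-ABP + alum and 5 with alum, and 6 4T1-control tumors, whose cells carry inducible GFP only, received alum. By the labels, the DOX diet began on day 4 and only for the 4T1-CAT and 4T1-control groups, the injection of 20 ug CAT-ABP with 100 ug alum, or of alum alone, was on day 6, and tumors were harvested on day 8; the study's text dates each of these steps 1 day later. Alum particles were thus present in every tumor, and there were no uninjected tumors.

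CAT-ABP is human catalase made as a recombinant protein and joined to a peptide that binds alum, so it adds enzyme outside cells (extracellular catalase, EC CAT) and no transcript. The catalase of 4T1-CAT cells is a lentiviral transgene without the peroxisomal targeting motif, so it is made in the cytosol of tumor cells (intracellular catalase, IC CAT). The transduced lines were selected with puromycin and sorted for GFP, and are not described as single clones. The values of *Cat* below are those of the mouse gene, and the transgene has no row in the count table. In RNA of whole tumors, fewer cells of a type and less RNA per cell cannot be told apart.

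Hydrogen peroxide is removed in mammalian cells mainly by catalase, glutathione peroxidases and peroxiredoxins. Catalase, a heme enzyme of peroxisomes, splits hydrogen peroxide into water and oxygen without a reductant. Peroxiredoxins reduce it with a reactive cysteine that is then restored, for most of them, by thioredoxin. PRDX1 and PRDX2 are mainly cytosolic, PRDX3 is mitochondrial, PRDX4 sits in the endoplasmic reticulum (ER) or is secreted, PRDX5 is found in mitochondria, peroxisomes and cytosol, and PRDX6 is a 1-cysteine enzyme that also acts on phospholipids. Because these enzymes share their substrate, the question for the added catalase was whether the tumors' own genes for it changed, and a second question was how the genes differ between tumor models.

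By GENCODE M21 on GRCm38, *Cat* (ENSMUSG00000027187) lies on chromosome 2 at 103453849 to 103485160, *Prdx1* (ENSMUSG00000028691) on chromosome 4 at 116685544 to 116700822, *Prdx2* (ENSMUSG00000005161) on chromosome 8 at 84969587 to 84974834 and *Prdx3* (ENSMUSG00000024997) on chromosome 19 at 60864051 to 60874556. *Prdx4* (ENSMUSG00000025289) lies on chromosome X at 155323918 to 155340754, *Prdx5* (ENSMUSG00000024953) on chromosome 19 at 6906697 to 6910106 and *Prdx6* (ENSMUSG00000026701) on chromosome 1 at 161240112 to 161251219. Copies that could take reads from them were looked for by name and not by sequence. Those found under the names of these genes held few counts over all 38 tumors. *Prdx2-ps1* had 73.8 counts in sum, *Prdx6b* 55.7, *Prdx2-ps2* 17.1, *Prdx6-ps2* 7 and *Prdx1-ps* 2. The estimated count of *Prdx1* was not a whole number in 98.7% of libraries, against 38.2% for *Prdx2*, 23.7% for *Prdx5*, 13.2% for *Prdx6* and 0% for *Cat*, *Prdx3* and *Prdx4*, so part of the *Prdx1* reads was shared out among genes. Which genes shared them, and how many reads, was not tested.

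RefSeq promoter windows (GRCm38.p6, 250 bases before to 50 after the transcript start) were matched for 6 of the 7 genes. Stretches of 4 of them are shown for the genes on which the results below turn, 5′ to 3′ on the strand of the gene, up to the first base of the GENCODE gene. The stretches are chr2:103485161-103485403 (minus strand) for *Cat*, chr4:116685349-116685543 (plus strand) for *Prdx1*, chr8:84969372-84969586 (plus strand) for *Prdx2* and chr19:60874557-60874788 (minus strand) for *Prdx3*. Capitals mark matches, on either strand, to 4 motifs. The core of the antioxidant response element was searched as TGACNNNGC, where N is any base. The AP-1 site, which can overlap with it, was searched as TGANTCA. The CCAAT box was searched by the 5 letters of its name, and the TATA box as TATAAA.
Cat: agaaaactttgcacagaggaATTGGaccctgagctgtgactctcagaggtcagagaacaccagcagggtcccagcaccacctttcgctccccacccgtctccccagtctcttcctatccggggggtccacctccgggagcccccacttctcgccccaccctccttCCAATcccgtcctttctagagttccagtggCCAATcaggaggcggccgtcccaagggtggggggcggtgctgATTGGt
Prdx1: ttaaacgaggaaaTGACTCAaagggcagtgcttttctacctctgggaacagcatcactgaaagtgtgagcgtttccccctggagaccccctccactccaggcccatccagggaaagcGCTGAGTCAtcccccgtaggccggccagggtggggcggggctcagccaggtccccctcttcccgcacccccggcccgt
Prdx2: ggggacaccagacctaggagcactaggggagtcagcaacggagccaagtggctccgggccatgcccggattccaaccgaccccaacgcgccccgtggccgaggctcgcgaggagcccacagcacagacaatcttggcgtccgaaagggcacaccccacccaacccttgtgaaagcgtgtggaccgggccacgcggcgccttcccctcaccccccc
Prdx3: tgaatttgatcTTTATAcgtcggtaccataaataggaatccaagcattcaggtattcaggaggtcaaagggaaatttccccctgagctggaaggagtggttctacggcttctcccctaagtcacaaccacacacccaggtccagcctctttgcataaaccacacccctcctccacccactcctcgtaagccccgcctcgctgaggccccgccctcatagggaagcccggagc

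The *Cat* window held 4 CCAAT boxes and no other of these motifs. The *Prdx1* window held 2 AP-1 sites, at -237 to -231 and -131 to -125 from the RefSeq start, the latter inside the only match to the antioxidant response element core among the 6 genes (-133 to -125, minus strand), and a TATA box beyond the stretch shown (-29 to -24). *Prdx3* had 1 TATA box on the minus strand (-239 to -234) and *Prdx4* 1 CCAAT box (-128 to -124), whereas *Prdx2* and *Prdx5* had no match. Of 32851 RefSeq promoter windows of the same length, 12.4% held the antioxidant response element core, 7.81% the AP-1 site, 37.4% the CCAAT box and 13.6% the TATA box. A match describes letters of the window and was not tested for binding.

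Tumors held between 493044 and 9077549 counts after the libraries of a tumor were added, and single libraries between 46233 and 6958626 (median 2075009). *Cat* was the member with the fewest counts, 14 to 400 per tumor (median 152.5), so its value in a single tumor carries more counting error than those of *Prdx1* (2016 to 31173), *Prdx2* (385 to 6272), *Prdx3* (38 to 1038), *Prdx4* (118 to 2036), *Prdx5* (119 to 3835) or *Prdx6* (79 to 1932). The 7 genes together made up 0.356% to 0.652% of the counts of a tumor. The first part of the index tags sorts the libraries into 4 sets. These are called pools here, which the labels do not say they are, and 1 tag is given to 2 libraries. All CT26 tumors, the 4T1 tumors given CAT-ABP and replicates 1 and 2 of the 4T1 alum tumors fall in one pair of pools. Replicates 3 to 5 of the 4T1 alum tumors fall with all 4T1-CAT and 4T1-control tumors in the other pair. The carcinoma origin of the lines was checked with 9 epithelial genes (*Epcam*, *Cdh1*, keratins and claudins), whose summed level was 1478 to 2894 CPM (counts scaled to a common total) in 4T1-derived tumors and 41.1 to 84.2 CPM in CT26 tumors, so these markers were low in CT26.

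Levels are given as CPM, scaled by TMM factors over all tumors, which compares a gene between tumors and not one gene with another. *Cat* stood low in CT26. In CT26 alum tumors its level was 24.4, 23.9, 23.9, 19.7 and 24.4 CPM in replicates 1 to 5, and in the 6 CT26 tumors given CAT-ABP it ranged from 18.9 to 26.9 CPM (median 24.8). The 4T1 alum tumors had 39.4, 36.6, 38.3, 43.8 and 32.8 CPM, and none of them overlapped with CT26. In 4T1 tumors given CAT-ABP *Cat* ranged from 16.8 to 45.0 CPM (median 33.5). The lowest of these, replicate 4, rested on 14 counts (95% Poisson interval 9.18 to 28.2 CPM, counting error only) and has a library of low depth.

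*Cat* in 4T1-CAT tumors was 31.2, 39.5, 37.3, 39.5 and 34.9 CPM with CAT-ABP and 40.2, 38.1, 36.6, 36.4 and 33.9 CPM with alum. 4T1-control tumors had 36.6 to 49.3 CPM (median 39.3). All 3 groups lay above every CT26 tumor. By mean log2 CPM the order of groups ran from both CT26 groups up through 4T1 with CAT-ABP, 4T1-CAT with CAT-ABP, 4T1-CAT with alum and 4T1 with alum to 4T1-control, and no step between neighbors exceeded the larger of their SDs.

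**Figure D1:**
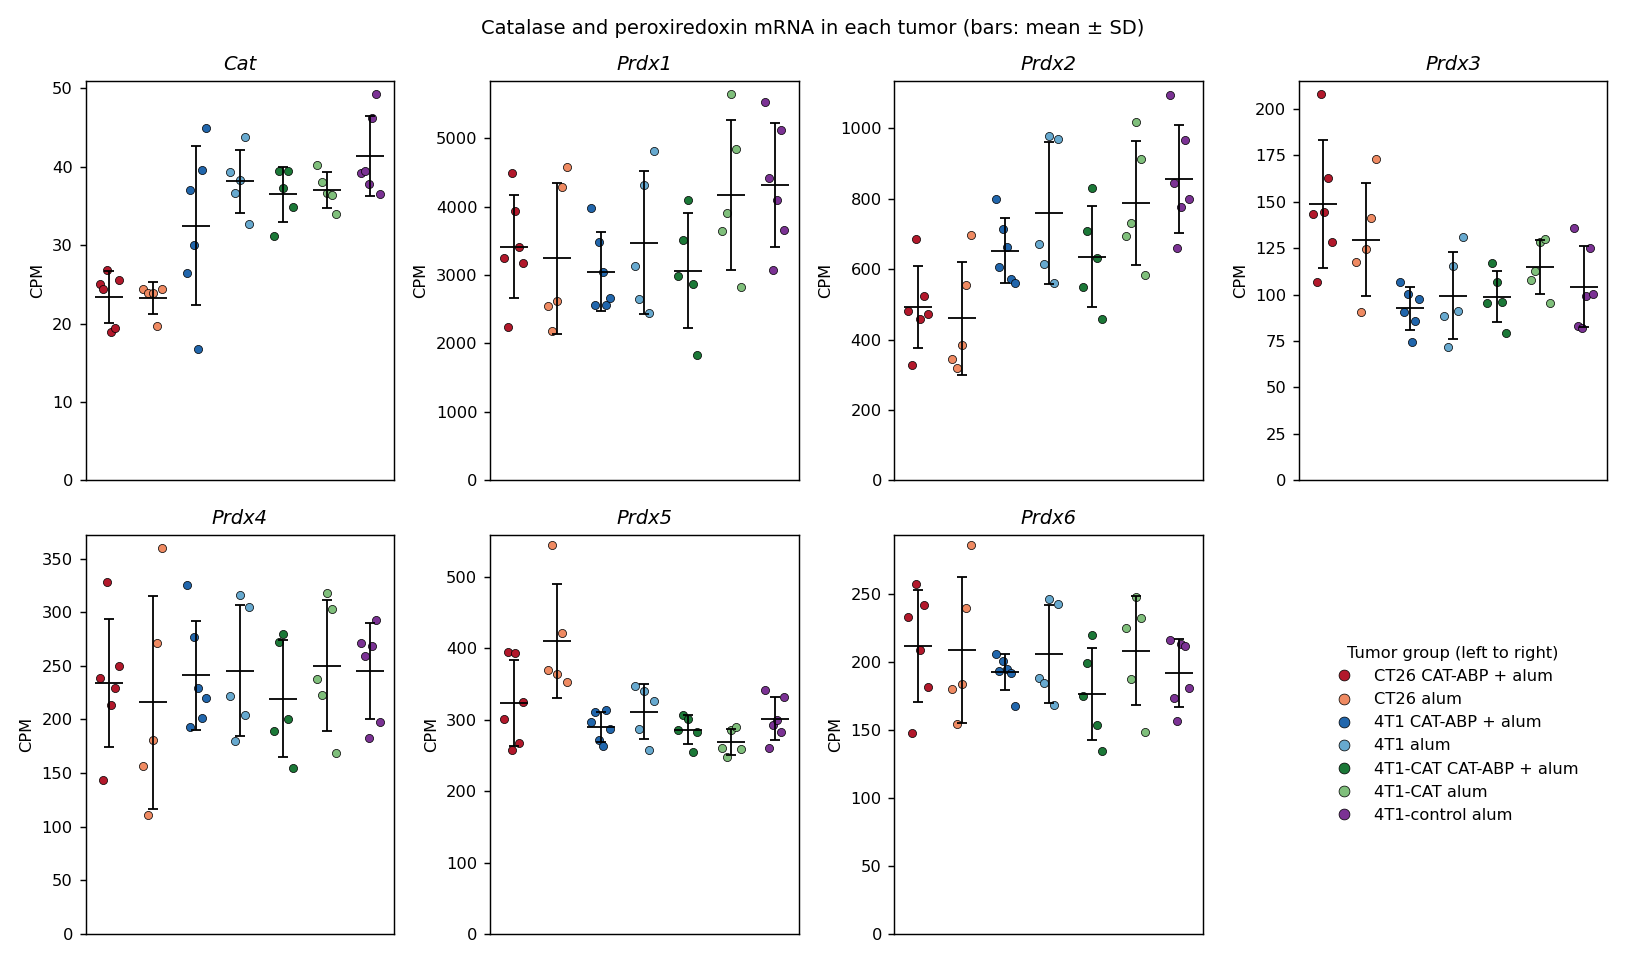
Level of each gene in CPM (y axis, linear, from 0) in every tumor, by group from left to right as in the legend. Points are tumors, bars the mean and SD. All 11 CT26 tumors have *Cat* between 18.9 and 26.9 CPM, and the 27 4T1-derived tumors lie above that range except replicates 1 and 4 of 4T1 with CAT-ABP.

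*Prdx2*, which encodes a cytosolic peroxiredoxin abundant in red blood cells, also stood low in CT26, with more overlap. CT26 alum tumors had 345, 320, 385, 555 and 697 CPM, and CT26 tumors given CAT-ABP 328 to 687 CPM (median 478). In 4T1 the alum tumors had 673, 614, 979, 560 and 971 CPM and the CAT-ABP tumors 560 to 800 CPM (median 635). Replicates 4 and 5 of CT26 alum and the highest CT26 tumor with CAT-ABP reached into the 4T1 range or close to it. 4T1-CAT tumors had 550, 709, 830, 631 and 457 CPM with CAT-ABP and 694, 732, 1019, 913 and 582 CPM with alum, and 4T1-control tumors 660 to 1095 CPM (median 821). The step from CT26 with CAT-ABP to the next group up, 4T1-CAT with CAT-ABP, was the only one for *Prdx2* that exceeded the SD of its neighbors.

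*Prdx3*, the mitochondrial peroxiredoxin, ran the other way. CT26 alum tumors had 118, 90.9, 125, 141 and 173 CPM, and those given CAT-ABP 107 to 208 CPM (median 144). 4T1 tumors had 88.3, 71.8, 115, 91.1 and 131 CPM with alum and 74.4 to 107 CPM (median 94.1) with CAT-ABP. Under CAT-ABP every CT26 tumor was above every 4T1 tumor, at the closest 106.9 against 106.7 CPM, whereas the alum groups overlapped. In the other groups *Prdx3* was between 79.6 and 136 CPM.

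*Prdx5*, whose product is found in several compartments, was highest in CT26 alum tumors at 369, 544, 364, 421 and 353 CPM. CT26 tumors given CAT-ABP ranged from 258 to 395 CPM (median 313), which overlapped with them. 4T1 alum tumors had 347, 286, 339.5, 257 and 326 CPM, all below the CT26 alum tumors, and all 27 4T1-derived tumors lay between 248 and 347 CPM. The step from CT26 with CAT-ABP to CT26 with alum was the only one for *Prdx5* beyond the SD of its neighbors.

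The remaining 3 genes overlapped between the models. *Prdx1*, which encodes the other mainly cytosolic enzyme, ranged from 2184 to 4582 CPM in CT26 and from 1837 to 5643 CPM in 4T1-derived tumors. *Prdx4*, of the ER, ranged from 111 to 360 and from 155 to 325 CPM, and *Prdx6* from 148 to 286 and from 135 to 248 CPM. No step between neighboring groups exceeded the SD for any of the 3. In a test for any difference over the 7 groups, the quasi-likelihood test of edgeR, adjusted over all genes by Benjamini-Hochberg, called 4 of the 7 genes at an adjusted p of 0.05, namely *Cat* (adjusted p = 1.5e-06), *Prdx2* (0.0006), *Prdx3* (0.0024) and *Prdx5* (0.0018). Of all 14646 genes tested 54.7% were called (58.8% at an unadjusted p under 0.05), so this share was near that of genes in general. Among the 5 groups of 4T1-derived tumors the same test called 0 of the 7 and 0.382% of all genes. At an unadjusted p under 0.05 it passed 1 of the 7, *Prdx1* (p = 0.0449, adjusted p = 0.338), and 14.1% of all genes.

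Extracellular catalase was compared with alum alone within each tumor model. None of the 7 genes was called in CT26, 4T1 or 4T1-CAT by edgeR or by DESeq2, where edgeR called 0% of all genes in each of the 3 models and DESeq2 0.00779%, 0% and 2.03%. At an unadjusted p under 0.05, edgeR passed 0 of the 7 genes in CT26 (2.42% of all genes), 0 in 4T1 (2.88%) and 0 in 4T1-CAT (15.3%), and DESeq2 passed 1, 0 and 1 (2.92%, 3.06% and 16% of all genes). The gene DESeq2 passed in CT26 was *Prdx5* (p = 0.0301), for which edgeR gave a log2 fold change of -0.34 (SE 0.17, 95% interval -0.70 to 0.011, p = 0.0566, adjusted p = 1.00). An exact permutation test on the log2 CPM of *Prdx5* over these 11 tumors gave p = 0.0606 (two-sided). 2 of the 6 CT26 tumors with CAT-ABP lay within the range of the alum tumors and 4 below it.

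For *Cat* itself the change in CT26 was 0.0015 on the log2 scale with a 95% interval from -0.30 to 0.30, so a change of more than about that size in the mouse transcript was outside the interval. The corresponding intervals were -0.56 to 0.17 in 4T1 and -0.25 to 0.20 in 4T1-CAT. In 4T1-CAT, *Prdx1* had a log2 fold change of -0.44 (SE 0.22, 95% interval -0.91 to 0.024, edgeR p = 0.0612, adjusted p = 0.351), from 1837 to 4102 CPM with CAT-ABP against 2819 to 5643 CPM with alum. The median log2 fold change of the 7 genes was 0.078 in CT26, -0.11 in 4T1 and -0.22 in 4T1-CAT, against medians over all genes of -0.0038, -0.0030 and -0.00066. Most of the peroxiredoxins varied together within groups (below), so a median of the 7 genes does not stand for 7 separate results. The 4T1 groups were partly divided between pools of index tags. Within the shared pools (6 tumors with CAT-ABP and 2 with alum) the 4T1 values of *Prdx1* and *Prdx2* were 0.076 and 0.018 in place of -0.20 and -0.23, and those of *Prdx3*, *Prdx4* and *Prdx6* were positive too, at 0.21, 0.26 and 0.044.

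The effect of CAT-ABP was compared between models as an interaction term. For CT26 against 4T1 the test called 0 of the 7 genes (0% of all genes), and 0 at an unadjusted p under 0.05 (3.59% of all genes). For 4T1-CAT against 4T1 it also called 0 of the 7 (0%), with 0 at an unadjusted p under 0.05 (8.79%). DESeq2 called 0 in both, and 0% of all genes. Intervals of the differences were wide. For *Prdx1* they ran from -0.39 to 0.90 between CT26 and 4T1 and from -0.87 to 0.38 between 4T1-CAT and 4T1, and for *Cat* from -0.27 to 0.64 and from -0.26 to 0.60. Both differences use the 4T1 groups, which pools partly divide. With the pool as a term those of *Prdx1* were -0.015 and -0.52, in place of 0.25 and -0.25, and neither was called.

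**Figure D2:**
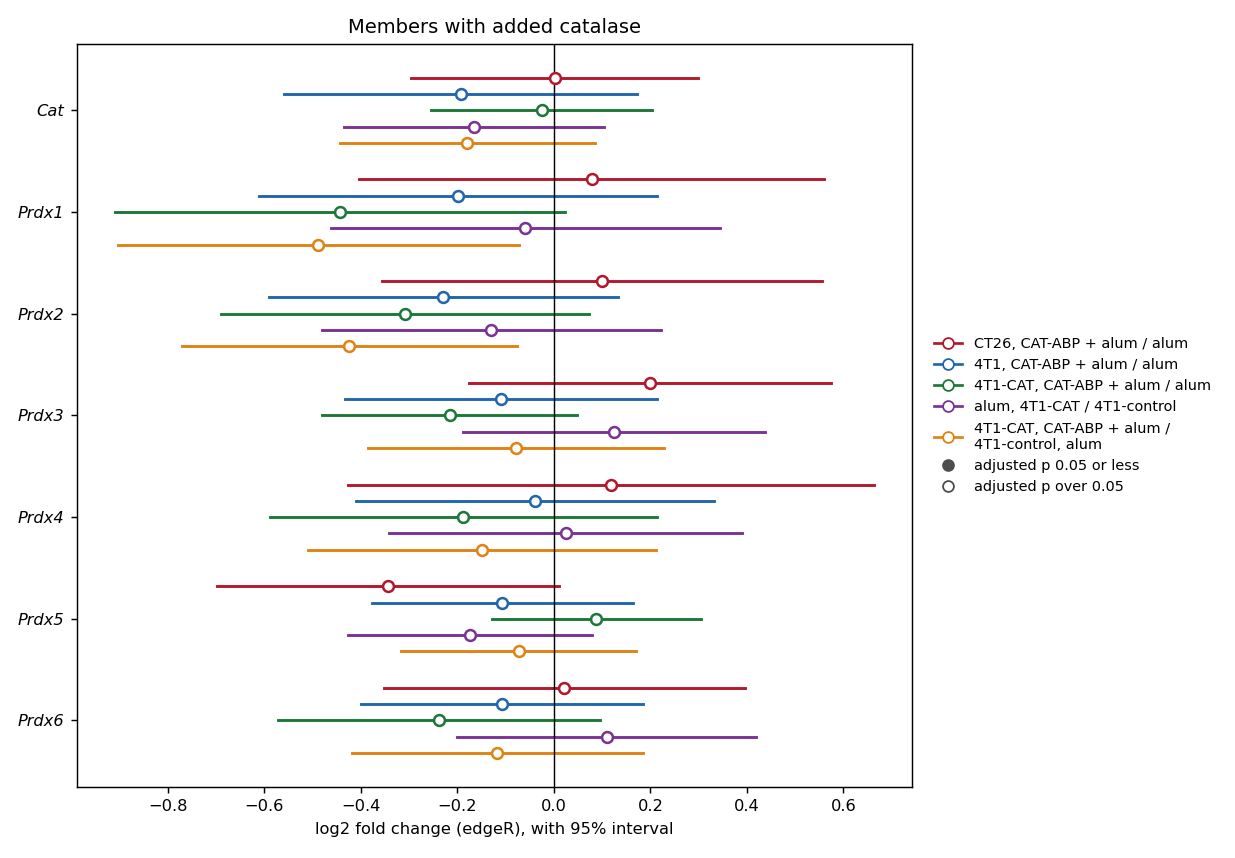
Log2 fold change (x axis) of each gene in the 5 comparisons of tumors with and without added catalase, with 95% intervals from edgeR. All points are open, since no adjusted p was 0.05 or less, and the intervals of *Prdx1* and *Prdx2* for both catalases together (-0.90 to -0.073 and -0.77 to -0.076) do not reach 0.

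Intracellular catalase, in 4T1-CAT against 4T1-control tumors under alum, gave no call among the 7 genes by edgeR or DESeq2 (0% of all genes called by edgeR and 0.0479% by DESeq2), and 0 at an unadjusted p under 0.05 (5.08% of all genes). The mouse *Cat* transcript had a log2 fold change of -0.16 (SE 0.13, 95% interval -0.43 to 0.10, edgeR adjusted p = 1.00). The log2 fold change of *Prdx5* was -0.17 (SE 0.12, interval -0.43 to 0.079, adjusted p = 1.00, edgeR), at 248 to 290 CPM against 261 to 341 CPM. The remaining 5 genes had log2 fold changes between -0.13 and 0.13. The median over the 7 genes was -0.059, against -0.0053 over all genes.

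Tumors with both catalases, 4T1-CAT with CAT-ABP, were compared with 4T1-control tumors under alum. *Prdx1* was 2978, 3507, 4102, 2871 and 1837 CPM with both catalases and 3070 to 5520 CPM (median 4261) in 4T1-control. The log2 fold change of *Prdx1* was -0.49 (SE 0.20, edgeR p = 0.0238, adjusted p = 0.214, exact permutation p = 0.039). *Prdx2* was 457 to 830 CPM against 660 to 1095 CPM, a log2 fold change of -0.42 (SE 0.17, edgeR p = 0.0196, adjusted p = 0.197, exact permutation p = 0.0346). The groups overlapped for both genes, and neither passed the adjusted test. None of the 7 genes was called by edgeR, DESeq2 or limma voom, which called 3, 510 and 331 of all 12781 genes (0.0235% and 3.99% by edgeR and DESeq2). At an unadjusted p under 0.05, 2 of the 7 genes passed, where 16.9% of all genes did. The 2 genes, *Prdx1* and *Prdx2*, varied together within groups (Spearman's rho 0.96, below), so they are not 2 separate results. In technical replicate 1 alone 0 of the 7 passed, where 965 of 9736 genes did. In technical replicate 2 alone 0 of the 7 passed, where 361 of 10458 genes did. The median log2 fold change of the 7 genes was -0.15 (all genes 0.025), and the other 5 had intervals that included 0, such as -0.44 to 0.086 for *Cat*. The control tumors of this comparison are those of the intracellular comparison, and its 4T1-CAT tumors are those of the extracellular one.

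Comparisons of the engineered lines with the parental one called none of the 7 genes either. For 4T1-control against 4T1 under alum, which differ in the GFP vector, selection and the DOX diet at once, edgeR called 0% of all genes and 10.5% passed an unadjusted p under 0.05, with 0 of the 7 among them. For 4T1-CAT against 4T1 under CAT-ABP, 0.0151% of all genes were called and 4.28% passed unadjusted, again with 0 of the 7. DESeq2 also called 0 of the 7 in both (0.129% and 0.0604% of all genes). Log2 fold changes ran from -0.11 to 0.31 in the first comparison and from -0.14 to 0.11 in the second. In the second, line, DOX diet and pool cannot be told apart. Pools partly divide the first, and its largest value, 0.31 for *Prdx1*, was 0.15 with the pool as a term.

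The models themselves differed. CT26 was compared with 4T1 separately under alum and under CAT-ABP + alum, in tumors that are not shared between both comparisons. *Cat* was lower in CT26 in each. Under alum its log2 fold change was -0.71 (SE 0.13, edgeR adjusted p = 0.00054), a level of 0.609 times that of 4T1. No CT26 alum tumor reached a 4T1 alum tumor, and the exact permutation test gave p = 0.0079, the smallest it can give with 5 tumors a group. Under CAT-ABP it was -0.55 (SE 0.17, edgeR adjusted p = 0.0141), where the groups overlapped through replicates 1 and 4 of 4T1 and the exact permutation p was 0.0952. This call was lost without replicate 2, 5 or 6 of 4T1 with CAT-ABP (adjusted p 0.0533 to 0.0768) and in technical replicate 2 alone (-0.62, adjusted p = 0.0543). *Cat* remained called under alum without any one of the 10 tumors (log2 fold change -0.78 to -0.66 over these fits and all other alternatives), and with the pool as a term (-0.71, adjusted p = 0.00858). Under alum, fits with the pool as a term set CT26 against replicates 1 and 2 of 4T1 alum, the only ones in the CT26 pools.

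*Prdx2* was called lower in CT26 under alum (log2 fold change -0.72, SE 0.24, edgeR adjusted p = 0.0245, exact permutation p = 0.0476) and under CAT-ABP (-0.45, SE 0.17, edgeR adjusted p = 0.0349, exact permutation p = 0.0216). Under alum the call was lost with the pool as a term (-0.48, adjusted p = 0.255) and when any 1 of 5 tumors was left out (replicates 1 to 3 of CT26 alum, 3 and 5 of 4T1 alum, adjusted p 0.0521 to 0.0659), and in technical replicate 1 alone (-0.61, adjusted p = 0.111). Replicates 3 and 5 of 4T1 alum, the pair with the highest *Prdx2*, are in the pools that hold no CT26 tumor. The CAT-ABP groups shared their pools, and there the call was lost when any 1 of 7 tumors was left out (replicates 1, 2, 4 and 6 of CT26, 1, 3 and 4 of 4T1, adjusted p 0.0522 to 0.0746), in 1 model over all 7 groups (-0.42, adjusted p = 0.0603) and in technical replicate 1 alone (-0.38, adjusted p = 0.116). The erythroid list (7 of 8 genes matched to the count table by symbol, all 7 detected) summed to 101 to 196 CPM in CT26 and 43.1 to 220 CPM in 4T1-derived tumors, which overlapped.

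*Prdx3* was called higher in CT26 under CAT-ABP (log2 fold change 0.64, SE 0.15, edgeR adjusted p = 0.00206), a level of 1.56 times that of 4T1. All 6 CT26 tumors were above all 6 of 4T1 (exact permutation p = 0.0022, the smallest possible), though the closest were at 106.9 and 106.7 CPM. The call was lost in technical replicate 2 alone (0.45, adjusted p = 0.0813, edgeR). Under alum its log2 fold change was 0.38 (SE 0.19, adjusted p = 0.115), or 0.70 with the pool as a term (adjusted p = 0.0403, edgeR), and it was called without replicate 2 of CT26 alum (adjusted p = 0.043). In the tumors of shared pools only, with replicates 1 and 2 of 4T1 alum, it was not called (0.68, adjusted p = 0.064, edgeR). *Prdx5* had a log2 fold change of 0.40 under alum (SE 0.16, edgeR adjusted p = 0.059) and was called by DESeq2 (adjusted p = 0.0254), with all 5 CT26 tumors above all 5 of 4T1 (exact permutation p = 0.0079). Without replicate 5 of CT26 alum edgeR called it too (adjusted p = 0.0383). Under CAT-ABP it was 0.12 (95% interval -0.16 to 0.40). For *Prdx1*, *Prdx4* and *Prdx6* the 95% intervals included 0 in both comparisons, at the narrowest -0.20 to 0.40 for *Prdx6* under CAT-ABP and at the widest -0.76 to 0.39 for *Prdx4* under alum.

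Altogether 2 of the 7 genes were called under alum, both lower in CT26, where 42.4% of all genes were called, 21.1% lower and 21.3% higher. Under CAT-ABP 3 of the 7 were called, 2 lower and 1 higher, against 45.5% of all genes, 23.7% lower and 21.8% higher. DESeq2 called 3 of the 7 in each, and 44.6% and 47.7% of all genes. At an unadjusted p under 0.05, 3 of the 7 genes passed in each, where 50.2% and 52.1% of all genes did. Groups without overlap were found for *Cat* and *Prdx5* under alum (29.9% of all genes) and for *Prdx3* under CAT-ABP (22.3%). The median log2 fold change of the 7 genes was -0.098 and 0.10, against 0.020 and -0.019 over all genes. The number of the 7 genes called was thus near or below the share of all genes, and the models differed in a large part of the transcriptome. Marker sums moved with the model too. The T cell list (7 of 7 genes detected) summed to 65.5 to 164 CPM in CT26 against 21.6 to 87.5 CPM in 4T1-derived tumors, and the fibroblast list (8 of 8) to 1347 to 2628 against 2135 to 6174 CPM, and their part in the differences was not tested.

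**Figure D3:**
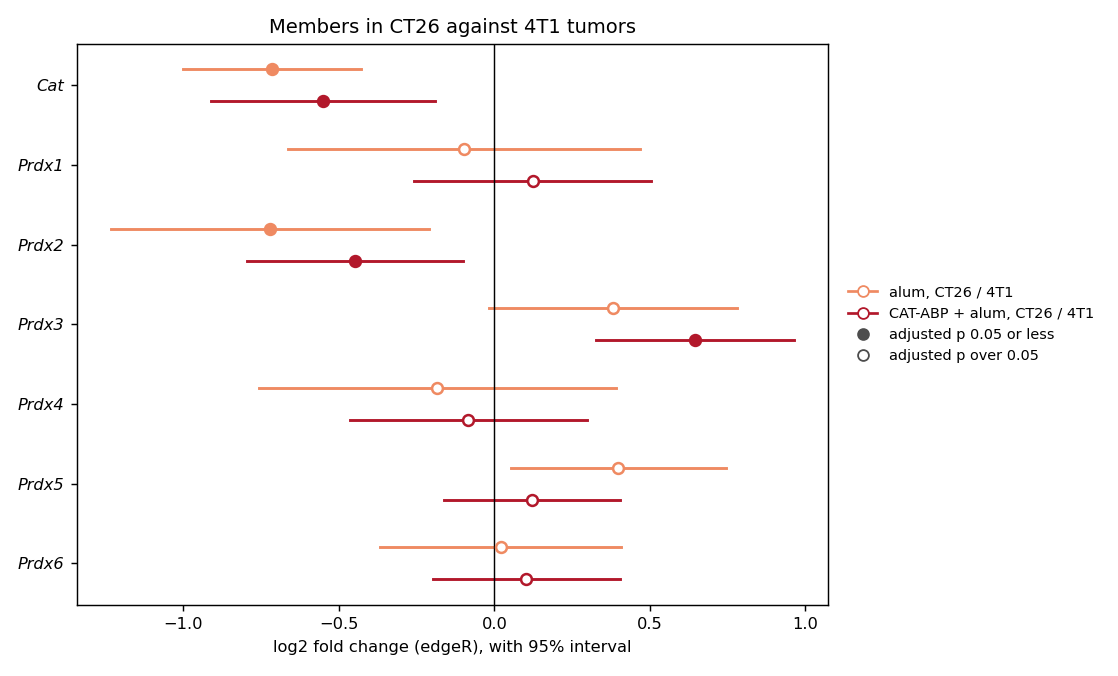
Log2 fold change (x axis) of each gene in CT26 against 4T1 under alum and under CAT-ABP + alum, with 95% intervals from edgeR. Filled points have an adjusted p of 0.05 or less. *Cat* and *Prdx2* are filled and below 0 in both comparisons, and *Prdx3* is filled and above 0 under CAT-ABP.

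Ratios between members within a tumor were read as well. The ratio of 2 genes' counts in the same tumor does not depend on the scaling between tumors, but its size mixes level with how well each 3′ end was captured, so only its change between tumors is read. The ratio of *Prdx2* to *Prdx3* counts was 2.93 to 4.03 (median 3.30) in the 11 CT26 tumors and 5.74 to 10.1 (median 7.42) in the 27 4T1-derived tumors. The ratio of *Prdx1* to *Prdx2* was 6.50 to 8.57 (median 6.78) against 4.02 to 5.54 (median 4.89), and that of *Prdx2* to *Prdx6* was 1.92 to 2.67 against 2.99 to 5.07. These were the 3 of 21 ratios without overlap between the models, were chosen after the values were seen, and all hold *Prdx2*. Over all pairs of the 10783 genes counted in every tumor, 10.3% of ratios were without overlap, so nothing particular to these genes is read from the 3. None of the 7 single genes separated all 11 CT26 from all 27 4T1-derived tumors, as 9.97% of all genes did.

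In single technical libraries the split held in part. In technical replicate 1 the ratio of *Prdx2* to *Prdx3* was 2.61 to 3.78 against 4.51 to 11.8, and in technical replicate 2 it was 3.29 to 5.64 against 5.46 to 12.8, which overlapped by a small margin (5.70 to 10.3 in the 23 4T1-derived tumors whose library was not of low depth). The ratio of *Prdx1* to *Prdx2* was 6.38 to 8.46 against 3.51 to 5.34 and 6.61 to 8.76 against 4.29 to 5.82, without overlap. The ratio of *Prdx2* to *Prdx6* overlapped in both technical replicates, in the first at 1.66 to 2.50 against 2.42 to 4.64. Both pairs of pools hold 4T1-derived tumors, and those of 4T1 with CAT-ABP, which shared the CT26 pools, had ratios of *Prdx2* to *Prdx3* of 5.74 to 8.92.

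**Figure D4:**
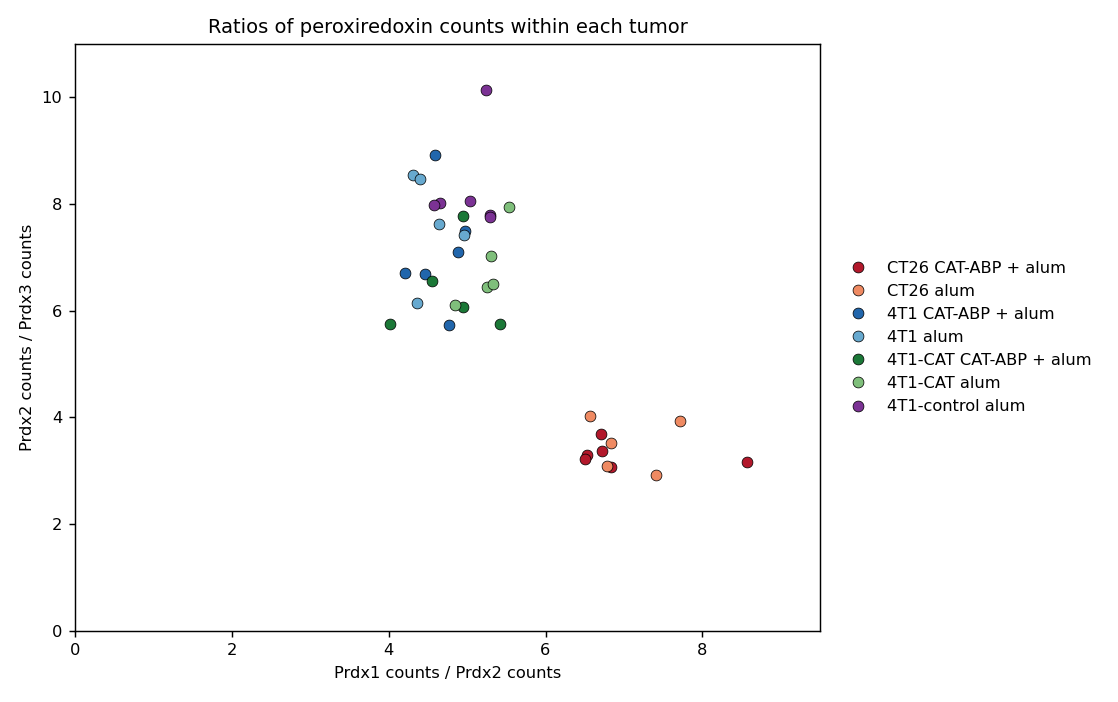
Ratio of *Prdx2* to *Prdx3* counts (y axis) against the ratio of *Prdx1* to *Prdx2* counts (x axis) in each of the 38 tumors, on linear axes from 0 and colored by group. The 11 CT26 tumors lie at 6.50 or more on the x axis and 4.03 or less on the y axis, and the 27 4T1-derived tumors at 5.54 or less and 5.74 or more.

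Log2 ratios of all 21 pairs were also compared in the 9 comparisons between groups by two-sided exact permutation tests, 189 in all, adjusted together by Benjamini-Hochberg. None passed an adjusted p of 0.05. Ratios without overlap numbered 6 in CT26 against 4T1 under alum (each p = 0.0079, adjusted p = 0.0789) and 7 under CAT-ABP (each p = 0.0022, adjusted p = 0.0584), exact permutation values that are the smallest these designs allow. Over all pairs of genes counted in every tumor compared, 28.7% and 22.4% of ratios were without overlap, so nothing particular to the 7 genes is read from these counts. Ratios of *Prdx1* to *Prdx2*, *Prdx2* to *Prdx3*, *Prdx2* to *Prdx6*, *Prdx3* to *Prdx4* and *Prdx3* to *Prdx6* were without overlap in both. The log2 ratio of *Prdx2* to *Prdx3* differed by -1.13 and -1.09 in these comparisons. Among the comparisons on added catalase, 1 ratio was without overlap, *Prdx1* to *Prdx6* with both catalases, where 2.08% of ratios over all gene pairs were (log2 difference -0.39, exact permutation p = 0.0065, adjusted p = 0.0789).

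Within groups, the peroxiredoxins fell into a set that varied together and a pair of genes that did not join it. After the mean of each group was subtracted, the log2 CPM of *Prdx1*, *Prdx2*, *Prdx3*, *Prdx4* and *Prdx6* correlated over the 38 tumors in all 10 pairs, with Spearman's rho of 0.81 to 0.96 and Pearson's r of 0.82 to 0.96 (0.79 to 0.96 without the 2 tumors farthest from the median). A permutation test within groups gave p = 1e-05 for each pair, the smallest that 100000 permutations can give (adjusted p = 2.1e-05 over 21 pairs, for r and for rho). The other 11 pairs, with *Cat* or *Prdx5*, had rho of -0.21 to 0.025 and r of -0.25 to 0.13, with no adjusted p below 0.381. So tumors with high *Prdx1* for their group tended to have high *Prdx2*, *Prdx3*, *Prdx4* and *Prdx6*, and no such relation was detected for the catalase gene or for *Prdx5*.

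Values of one tumor share a library, so each pair was also read across technical replicates, one gene from either library. The 10 pairs then had rho of 0.50 to 0.70, and 0.60 to 0.73 in the 32 tumors without a library of low depth. *Prdx1* itself had a rho of 0.71 between the libraries of a tumor, *Prdx2* 0.74, *Prdx4* 0.61, *Prdx6* 0.55 and *Prdx5* 0.49. *Cat* had 0.21 and *Prdx3* 0.22, so the within-group spread of *Cat* was mostly not repeated between libraries, and a weak relation with *Cat* would not be detectable at this depth. Without libraries of low depth *Prdx3* had 0.47, *Prdx5* 0.77 and *Cat* 0.098.

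**Figure D5:**
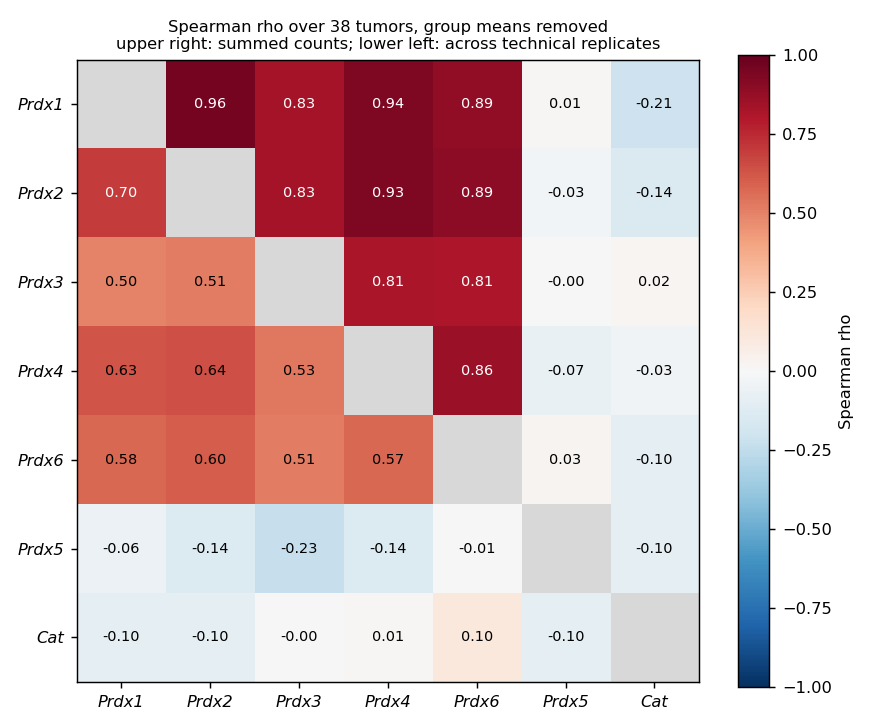
Spearman's rho between genes over 38 tumors after subtraction of group means. The upper right uses the summed counts of a tumor and the lower left one gene from each technical library, the average of both ways. *Prdx1*, *Prdx2*, *Prdx3*, *Prdx4* and *Prdx6* form a block of 0.81 to 0.96 above and 0.50 to 0.70 below, and *Prdx5* and *Cat* stand outside it.

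This covariation was shared with much of the transcriptome. The first principal component of the within-group deviations held 22.6% of the variance of all genes, and its rho was 0.73 with *Prdx1*, 0.69 with *Prdx2*, 0.69 with *Prdx4*, 0.61 with *Prdx6* and 0.43 with *Prdx3*, against -0.22 with *Prdx5* and -0.33 with *Cat*. The share of mitochondrial transcripts (3.25% to 6.34% of a tumor's counts) had a rho of 0.80 with *Prdx1*, 0.78 with *Prdx2*, 0.68 with *Prdx4*, 0.61 with *Prdx6* and 0.51 with *Prdx3*, and of -0.033 with *Prdx5* and -0.24 with *Cat*. With *Prdx1*, 971 other genes (6.63%) had a rho of 0.8 or more. The macrophage list (9 of 9 genes detected, 1251 to 3672 CPM in sum) had a rho of 0.49 to 0.68 with the 5 genes, the fibroblast list -0.61 to -0.48 and the endothelial list (7 of 7, 83.5 to 216 CPM) -0.67 to -0.44. The neutrophil list (9 of 9, 53.6 to 184 CPM) had -0.41 with *Cat* and 0.43 with *Prdx5*. Total counts had a rho of 0.36 with *Cat*, 0.28 with *Prdx3* and -0.065 to 0.082 with the others. The part of tissue makeup, RNA quality and depth in the covariation was not tested.

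The genes most like each member by the same rho, among 14645 others, are given as a description. *Prdx1* was most like *Vdac3* (0.986), a channel of the outer mitochondrial membrane, *Calm2* (0.985), a calmodulin gene, and *Mrps14* (0.982), of the mitochondrial ribosome. *Prdx2* was most like *Skp1* (0.979), a subunit of ubiquitin ligases, *Calm2* and *Vdac3* (0.972 each). For *Prdx3* these were *Suclg1* (0.896), of the citric acid cycle, *Thyn1* (0.893) and *Eif3m* (0.889), a translation initiation factor. For *Prdx4* they were *Mgst3* (0.958), a microsomal glutathione transferase, *Psmc2* (0.957), of the proteasome, and *Myg1* (0.946), and for *Prdx6* *Anxa5* (0.932), an annexin, *Tm2d3* (0.919) and *Anxa3* (0.915).

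*Prdx5* was most like *Aldoa* (0.80), the glycolytic aldolase, *Tmem67* (0.75) and *Ier3* (0.71), an early response gene. *Cat* was most like *Map4k3* (0.74), a protein kinase, *Adam33* and *Ppp3ca* (0.68 each), the latter a calcineurin subunit. The closest match of *Cat* was thus weaker than that of any peroxiredoxin. *Cat* also had the lowest rho between the libraries of a tumor (0.21), and each match is the highest of 14645, so no trait of the gene is read from this.

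Partner genes were read as 4 lists, chosen with earlier results of these data known. In the 9 comparisons between groups or of effects other than CT26 against 4T1, edgeR called 0 genes of the lists. It called 0% to 0.0235% of all genes there, so nothing particular to the partners is read from this. With both catalases, 3 of 17 thioredoxin and peroxiredoxin partners and 4 of 9 ER oxidative folding genes had an unadjusted p under 0.05. So did 1 of 12 genes for peroxisome import and biogenesis, 3 of 15 peroxisomal oxidases and lipid enzymes, and 16.9% of all genes. The lists were not read with DESeq2. In CT26 against 4T1, the thioredoxin and peroxiredoxin partners, some of whose products reduce or repair peroxiredoxins, had 17 genes tested. Of these, 5 were called higher and 4 lower under alum, and 7 higher and 3 lower under CAT-ABP. *Sesn3*, a sestrin, was the most reduced (log2 fold change -3.69 and -3.42), with *Nxn*, nucleoredoxin (-1.28 and -1.50), and *Txnrd2*, the mitochondrial thioredoxin reductase (-1.31 and -1.39). *Txn2*, mitochondrial thioredoxin (0.89), *Srxn1*, the sulfiredoxin that repairs overoxidized peroxiredoxins (0.80), and *Glrx*, a glutaredoxin (0.78), were higher under alum. *Gstp1*, a glutathione transferase that reactivates PRDX6 (1.22), *Txnrd3* (1.49) and *Srxn1* (0.81) were the leading ones under CAT-ABP. The median of the list was 0.019 and -0.0085, against 0.020 and -0.019 over all genes, and its share of calls, like that of the 7 genes, stands beside the 42.4% and 45.5% above.

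Of 9 genes for oxidative folding in the ER, the setting of PRDX4, *Qsox1* was lower in both comparisons (-1.08 and -1.05) and *Ero1a*, an oxidase that makes hydrogen peroxide as it folds proteins, was higher under alum (1.17). Of the genes for peroxisome import and biogenesis, on which catalase depends for its place in the cell, 13 and 12 were tested. Under alum 1 was called higher and 3 lower, and under CAT-ABP 2 higher and 3 lower. *Pex3* (-1.55 and -1.15) and *Pex13* (-0.71 and -0.75) were lower in both, and *Pex26* (-1.13) under alum, while *Pex14* (0.73 and 0.84) was higher in both. The list's medians were -0.12 and -0.28, against 0.020 and -0.019 over all genes. Of all genes 42.4% and 45.5% were called, so nothing particular to the ER or import list is read from its calls.

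Peroxisomal oxidases and lipid enzymes, among them sources of hydrogen peroxide, had 13 and 15 genes tested, with 2 higher and 4 lower under alum and 3 higher and 5 lower under CAT-ABP (medians -0.15 and -0.37). Over all genes 42.4% and 45.5% were called, with medians of 0.020 and -0.019, so nothing particular to the list is read from the number of its calls. *Uox*, urate oxidase, had 13 counts in sum over the 5 CT26 alum tumors against 696 over the 5 of 4T1, and 10 over 6 against 909 over 6 under CAT-ABP. Lower in both was also *Paox*, a polyamine oxidase (-1.02 and -0.90). *Xdh*, xanthine dehydrogenase, mostly a cytosolic enzyme, was higher in both (2.63 and 2.02), as was *Hao1*, a glycolate oxidase (0.78 and 1.25), and *Acox3* (0.56) under CAT-ABP. All of these are edgeR log2 fold changes with an adjusted p of 0.05 or less.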

How the data were processed

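RNA from 38 tumors, labelled as biological replicates of 7 groups, was sequenced by the authors in 76 libraries with HT3DGE, a modified SCRB-seq protocol for 3′ ends. Reads were assigned to genes by their Smart-seq2 pipeline in Terra, and DESeq2 was their test. What was deposited is an estimated count for each gene and library, not normalized. The aligner and genome build are not given in the sources used here, and all 55536 gene IDs are in GENCODE M21 (GRCm38). Whether molecular identifiers were collapsed is not stated, and libraries excluded by the authors are not named, so all were kept. Intervals on counts cover counting error only.

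Counts of both libraries were summed and rounded, filtered with filterByExpr, scaled by TMM and compared with the quasi-likelihood test of edgeR in a model of the compared groups (interaction terms for differences of effects), adjusted by Benjamini-Hochberg over all genes at 0.05. Log2 CPM used a prior count of 2. Single values were set against each other with exact permutation tests (two-sided). All 7 members were named; of other genes, up to 3 called per list and direction by smallest adjusted p (both Uox values as counts), and the 3 most alike per member. Some genes this rule names are not reported here. The members, lists and sequences shown were chosen with earlier results of these data known. Alternatives were DESeq2, RLE scaling, no filter, a mean of 20 counts or more, 1 model over 7 groups, the replicate block, each technical replicate alone, libraries under 0.25 of the median total (518752 counts, 7 libraries) left out, limma voom, a prior count of 0.5, the pool block, each tumor left out and, added after values were seen, the tumors of shared pools only. DESeq2 1.42.0, edgeR 4.0.16 and limma 3.58.1 were run in R 4.3.3.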

Additional observations from a re-analysis of the deposited data

Results flagged for a closer look

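In 49 groups of 5 or 6 tumors, 1 tumor stood apart from the rest of its group in 2, where chance alone does so in about 1 in 20 groups. *Cat* in replicate 4 of CT26 alum was at 19.7 CPM (67 counts) and the nearest tumor at 23.9 CPM, a gap of 0.907 of the group's log2 range. *Prdx6* in replicate 6 of 4T1 with CAT-ABP was at 168 CPM (875 counts) and the nearest at 192 CPM, a gap of 0.648 of the range. Neither tumor decided a call of these genes.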

How the results depend on the processing

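The number of the 7 genes called was 0 under every alternative and without any 1 tumor in the comparisons on added catalase, of the engineered lines, of the 5 groups of 4T1-derived tumors and of the differences of effects. These fits called from 0 to 575 of all genes. In CT26 against 4T1 under alum (2 called, and 5434 of 12817 genes), the number was 1 in technical replicate 1 alone (4116 of 11857 genes). It was 1 with shared pools only (3724 of 13600), 3 with DESeq2 (5714 of 12817) and 3 with 1 model over all 7 groups (5797 of 12817). Without single tumors it was 1 to 3, and 4823 to 5718 of all genes were called. Under CAT-ABP (3 called, and 5928 of 13016 genes) the number was 1 in technical replicate 2 alone (3559 of 10196 genes). It was 2 in technical replicate 1 alone (4584 of 12167) and 2 with 1 model over all 7 groups (6205 of 13016). Without single tumors it was 2 to 3, and 5396 to 6421 of all genes were called. Over the 7 groups (4 called, and 8018 of 14646 genes) the number was 2 in technical replicate 1 alone (6002 of 13602 genes). It was 3 with the pool block (6226 of 14646) and 5 with limma voom (9425 of 14646). The cause was not tested. With the replicate block, a paired fit by replicate number, the counts were 3 under alum (*Prdx3* was added, adjusted p = 0.0341), 3 under CAT-ABP, 4 over the 7 groups and 0 elsewhere. The first 3 of these fits called 5365, 5907 and 7782 of all genes. Same-numbered tumors had correlations of their deviations of -0.29 to 0.33, and in 0 of 9 comparisons was every pair over 0.1. The main fits therefore took the numbers only as names. The limit of 0.1 had no reference distribution, so this check does not decide whether same-numbered tumors were paired.

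Of 77 log2 fold changes, 27 were at least their SE. Those reversed in 5 fits. In 4T1 with CAT-ABP against alum, *Prdx1* and *Prdx2* were 0.077 and 0.019 with the pool block and 0.076 and 0.018 with shared pools only, and the CT26 against 4T1 difference of effects for *Prdx3* was -0.025 with the pool block. Of the 50 smaller ones 33 had another sign under at least 1 alternative, so no direction is read from them. With RLE scaling of log2 CPM the exact permutation p was 0.0498 for *Prdx5* with CAT-ABP in CT26, 0.0238 for *Prdx5* in 4T1-CAT against 4T1-control (-0.17) and 0.0556 for *Prdx2* in CT26 against 4T1 under alum. With the pool block, fitted only where pools divide a comparison's tumors, CT26 against 4T1 under alum kept *Cat*, lost *Prdx2* and gained *Prdx3*. With shared pools only, *Prdx3* was not called (0.68, adjusted p = 0.064, edgeR). Both fits rest on replicates 1 and 2 of 4T1 alum. In single tumors *Cat* rests on 14 to 400 counts, which limits what can be said of its spread within groups.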
